A study of Mus musculus with 2 samples.

Results

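The cells described here are 122 lymphatic-like endothelial cells of the mouse sciatic nerve that carry no class in the cell table the authors deposited. They were chosen by a rule on their own counts of unique molecular identifiers (UMIs, single captured RNA molecules). A cell had to be absent from the table of its library, hold at least 1000 UMIs, and hold UMIs of at least 4 of 9 lymphatic genes (Prox1, Lyve1, Flt4, Pdpn, Ccl21a, Mmrn1, Reln, Nts and Thy1). It also had to hold more UMIs of these 9 genes than of 14 fibroblast genes (Col1a1, Col1a2, Col3a1, Pdgfra, Dcn, Lum, Dpt, Pi16, Clec3b, Postn, Sfrp1, Mfap5, Fbln1 and Gsn). This gave 102 of the 1618 barcodes of the library from uninjured nerve and 20 of the 2023 barcodes of the library from injured nerve, or 122 of 3641 in all.

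Both libraries came from pooled sciatic nerves of adult mice in which the tamoxifen-inducible driver Cdh5(PAC)-CreERT2 had switched on a tdTomato reporter at the R26 locus (Chd5CreER/R26-TdTomato in the labels). Cells positive for tdTomato and negative for the leukocyte protein CD45 were sorted by flow cytometry. One library, called intact, held uninjured nerve, and the other, called injured, held the lesion site, or bridge, of nerves 7 days past injury. The labels give no strain, sex or number of animals, and the sort was meant to take only cells in which the Cdh5 driver had been active. With 1 library per condition there was no replicate and no test, and every 95% interval given here covers counting error only.

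Lymphatic vessels drain fluid, solutes and immune cells from tissue, and the endothelium that lines them keeps its identity through the transcription factor Prox1. It grows and survives through the receptor VEGFR3, encoded by Flt4, which binds VEGF-C, and it draws dendritic cells in by secreting the chemokine CCL21. Initial lymphatics carry the hyaluronan receptor LYVE1 and have loose, button-like junctions, whereas collecting vessels carry valves. In peripheral nerve, lymphatic vessels are described in the outer connective tissue sheath, the epineurium.

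The lymphatic-like cells held a median of 4018 UMIs (1032 to 16989) in the intact and 5657 (2032 to 74442) in the injured library, or 515377 and 237239 UMIs in sum. Annotated endothelial cells, those with a class name starting EC_ in the authors' table, numbered 818 with 4615793 UMIs (median 3837) and 1322 with 20027884 UMIs (median 11104). They serve as the comparison and are called blood endothelial cells below. A single injured lymphatic-like cell of 74442 UMIs held 31.4% of all UMIs of its group, so some values are given without it as well. The libraries shared 298 barcodes, among them those of 5 intact and 2 injured lymphatic-like cells, each the far deeper of its pair. The 5 intact cells had 12350 to 16989 UMIs, and their injured namesakes had 515 to 587 UMIs and the class INTERMEDIATE. The 2 injured cells had 41430 and 74442 UMIs, and their intact namesakes had 554 UMIs (EC_IMMAT) and 872 UMIs (EC_PROLIF). Median mitochondrial shares of UMIs were 3.55% and 3.66%, and 4 intact cells stood at 10% or more. The doublet caller Scrublet called none of the 122, but it called only 3 of 1618 and 4 of 2023 barcodes, too few to show that it worked, so no barcode was removed.

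Among barcodes of at least 1000 UMIs, lymphatic-like cells made up 7.39% (102 of 1381, exact Clopper-Pearson interval 6.06% to 8.89%) in the intact and 1.12% (20 of 1792, 0.683% to 1.72%) in the injured library. Among those without a class the shares were 15.3% (102 of 665, 12.7% to 18.3%) and 4.52% (20 of 442, 2.79% to 6.90%). The lymphatic-like share was lower in the injured library over both denominators. Injury, the piece of tissue taken, the sort and the library cannot be told apart here. Of 716 intact and 1350 injured annotated barcodes of at least 1000 UMIs, 0 met both conditions of the rule on genes. These were 4 or more of the 9 lymphatic genes and more UMIs of these than of the fibroblast genes.

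The rule cut through a sparse zone. In the intact library 24 lymphatic-like cells held all 9 genes, 4 held exactly 4, and 4 barcodes with 3 of the genes were left out although their lymphatic UMIs outnumbered their fibroblast UMIs. The 4 just inside held 5 to 79 lymphatic UMIs and the 4 just outside 9 to 79, so these overlapped. For the injured library, every lymphatic-like cell held at least 6 of the genes, and no barcode with 3 of them had more lymphatic than fibroblast UMIs. Another 2 intact barcodes had 4 or more lymphatic genes and failed on fibroblast UMIs. The plot of rule genes per barcode shows both zones.

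**Figure D1:**
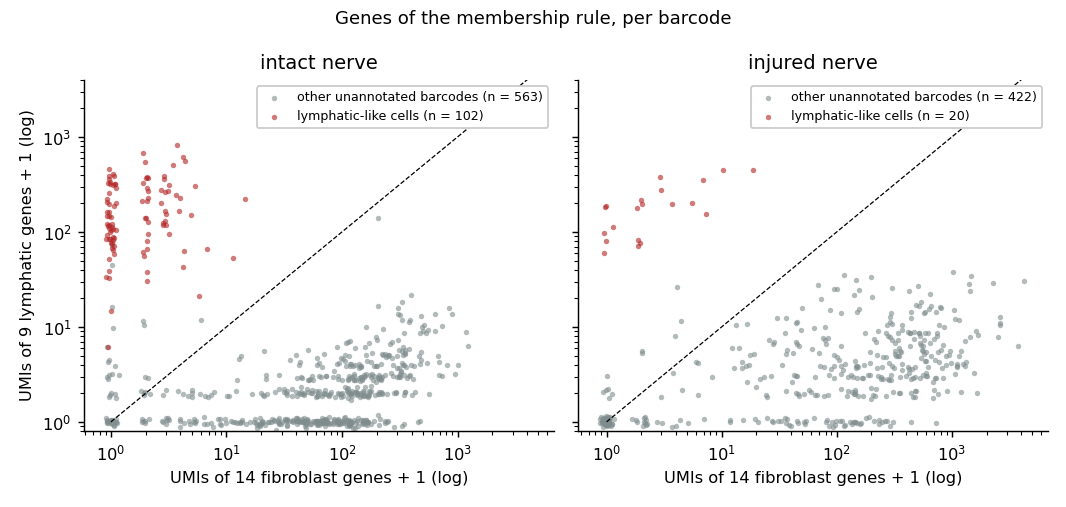
UMIs of the 9 lymphatic genes against UMIs of the 14 fibroblast genes (1 added, log axes, slight jitter) for each unannotated barcode of at least 1000 UMIs, with the line of equality dashed. The 102 intact and 20 injured lymphatic-like cells (red) lie above the line and apart from most other barcodes (grey), and a few grey points sit near them in the intact library.

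The label was also checked with genes that the rule did not use. When barcodes of at least 1000 UMIs were clustered without the 23 rule genes and without the near copies of Ccl21a, all 102 intact cells fell into 1 of 15 clusters. That cluster held 111 barcodes, of which the other 9 were unannotated, with 1 to 3 lymphatic genes, and 0 were annotated. All 20 injured cells fell into 1 of 16 clusters, which held these 20 barcodes and no others. The clusters are a description, since lymphatic genes outside the rule shaped them.

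Ccl21a, the chemokine gene, stood at 27813 CPM (UMIs of the gene per 1000000 UMIs of the summed cells) in intact and 9615 in injured lymphatic-like cells, against 11.9 and 0.899 in blood endothelial cells. Per cell it ran from 0 to 70270 CPM with a median of 27964 in the intact library, where 100 of 102 cells had a UMI, and from 1674 to 39511 with a median of 18290 in the injured one. The gene lies at chr4:42772860-42773993 of GRCm38 among near-identical copies, which makes its count uncertain. The transcript of Gm21541, which RefSeq names Ccl21d at the same locus, differs from that of Ccl21a at 6 of 870 aligned bases (99.3% identical). Gm21541 held 537 UMIs in intact and 47 in injured lymphatic-like cells, and 5 and 0 in blood endothelial cells. Another copy, Gm13304, held 20 and 2, and Ccl21b and Gm10591 held 0. How reads were shared between copies was not given in the sources used here, so these counts are best read as a sum. The 250 bases before the start of both genes are shown because they are as alike as the transcripts: 249 bases align with 0 gaps and 1 difference, printed in capitals. Both sequences are from RefSeq (GRCm38.p6), each on its gene's strand, at chr4:42773992-42774241 (minus strand) and chr4:41903363-41903612 (plus strand).
Ccl21a: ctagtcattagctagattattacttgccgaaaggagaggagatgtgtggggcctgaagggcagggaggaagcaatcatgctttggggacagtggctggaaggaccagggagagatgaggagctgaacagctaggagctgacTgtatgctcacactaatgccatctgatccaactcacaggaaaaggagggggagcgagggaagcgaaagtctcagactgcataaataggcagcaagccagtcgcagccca
Ccl21d: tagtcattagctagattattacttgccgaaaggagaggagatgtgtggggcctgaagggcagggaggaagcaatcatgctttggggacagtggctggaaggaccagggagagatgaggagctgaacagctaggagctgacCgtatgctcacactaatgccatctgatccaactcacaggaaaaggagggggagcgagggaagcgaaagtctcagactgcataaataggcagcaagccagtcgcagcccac

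The other 8 lymphatic genes of the rule are described here without a test, because they chose the cells. Prox1, the master regulator of lymphatic fate, stood at 823 CPM in intact and 835 in injured lymphatic-like cells, against 9.75 and 3.10 in blood endothelial cells. It was seen in 87 of 102 and 19 of 20 cells, and per cell its CPM ran from 0 through a median of 668 to 3394 in the intact library. Flt4, the VEGF-C receptor, stood at 1207 and 746 CPM against 36.6 and 26.4, and its ratio of 33 in the intact library was the lowest of the 9. Lyve1 stood at 2680 and 2036 CPM against 2.60 and 0.799. Mmrn1, which encodes the secreted multimerin 1, stood at 3706 and 1433 CPM against 2.82 and 0.599. The extracellular protein gene Reln stood at 1038 and 556 CPM and the membrane protein genes Pdpn and Thy1 at 357 and 274 CPM and at 473 and 518 CPM. Nts, encoding the peptide neurotensin, stood at 995 and 577 CPM but was present in only 50 of 102 and 12 of 20 cells.

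Free RNA in the droplets was low for these genes by the share of blood endothelial cells with a UMI. After each cell was thinned to 1000 UMIs, which left 102 lymphatic-like and 690 blood endothelial cells in the intact library, Ccl21a was seen in 97.1% of the former and 1.88% of the latter. Lyve1 was seen in 80.4% and 0.145%, and Prox1 in 51.0% and 0.580%. On the injured side, the thinned shares for Ccl21a were 95% and 0.156%. Without thinning, 51 of 818 intact blood endothelial cells had a Ccl21a UMI and 31 had a Prox1 UMI.

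Markers of other cell types were few. In the intact lymphatic-like cells, 10 of 11 macrophage markers were at 0 UMIs (Ptprc, Csf1r, C1qa, C1qb, C1qc, Lyz2, Adgre1, Tyrobp, Fcer1g and Cd163), and the list summed to 21.3 CPM, against 16.2 in blood endothelial cells. Schwann cell markers summed to 19.4 CPM against 23.4, with Mbp and Sox10 at 0. Pericyte and smooth muscle markers summed to 81.5 CPM against 1058, with Rgs5 and Pdgfrb at 0. Perineurial markers summed to 81.5 CPM against 595. All 5 erythroid and all 5 neutrophil markers were at 0. Mesothelial, lymphoid, platelet, adipocyte and skeletal muscle lists each summed to 3.88 CPM or less. The 11 fibroblast markers outside the rule summed to 382 CPM against 214, with 4 of 11 at 0 (Mmp2, Serpinf1, Loxl1 and Scara5). In the injured cells they summed to 384 CPM against 377, with 6 of 11 at 0, and 11 of 11 macrophage markers were at 0. The reporter TdTomato stood at 77.6 against 79.7 CPM in the intact and 92.7 against 96.4 CPM in the injured library, so the lymphatic-like cells carried it at the level of the blood endothelium.

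Compared with all blood endothelial cells of the intact library, the lymphatic-like cells differed widely. Of 8475 measured genes (mean of both groups at least 10 CPM, rule genes left out), 800 (9.44%) were at least 2-fold higher and 865 (10.2%) at least 2-fold lower on the log2 scale with 5 CPM added. The median over all measured genes was 0.08. With the smaller injured group, 1613 genes reached 100 CPM, of which 135 (8.37%) were higher and 126 (7.81%) lower, with a median of 0.13. Of 1607 genes measured in both, 154 were higher in the intact library, of which 86 were also higher and 2 lower in the injured one. Of 135 lower ones, 97 were also lower and 1 higher. Lymphatic-like cells and blood endothelial cells are separate cells of the same library in each case, but a library is 1 sample, so the agreement has no error attached.

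Among genes outside the rule, Igfbp5 (chr1:72857932-72874884), which encodes a secreted binder of insulin-like growth factors, had the highest log2 ratio to intact blood endothelium with 5 CPM added (7.97) among the genes eligible for naming. Plain ratios of genes near 0 in blood endothelium, such as Pard6g, were larger. It stood at 2928 CPM against 6.72, a ratio of 436 (306 to 644), yet only 62 of 102 lymphatic-like cells had a UMI of it, and per cell it ran from 0 through a median of 703 to 16723 CPM. Pard6g, a cell polarity gene, was more even: it stood at 823 CPM against 1.30, a ratio of 633 (288 to 1734), and 93 of 102 cells had it. Maf (chr8:115682942-115707794), a transcription factor that acts in lymphatic patterning, stood at 962 CPM against 4.77, a ratio of 202 (132 to 325), in 91 cells. In the injured library Pard6g stood at 523 CPM against 0.350 and Maf at 299 against 2.70, so both remained far above blood endothelium there. Igfbp5 did not keep its level, and its injured values are given further down.

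The other 12 of the 15 highest ratios belong to several groups of proteins. Dtx1, a ubiquitin ligase that acts on Notch, stood at 343 CPM against 0.650. Slc45a3, a sugar transporter family member, stood at 293 CPM in intact lymphatic-like cells against 0.217 in blood endothelium, and at 295 CPM against 0.0999 in the injured library. The guidance ligand Sema3d stood at 326 CPM against 2.17 and the voltage-gated sodium channel gene Scn3a at 213 against 0.650. The proprotein convertase gene Pcsk6 stood at 415 CPM against 7.58, and Abi3bp, an extracellular matrix gene, at 487 against 10.2. The remaining levels were 310 CPM against 4.12 for Fndc1, 173 against 0.217 for Sh3gl3, and 367 against 6.93 for the adhesion receptor gene Adgrg3. Each of the 15 was higher than in every one of the 9 blood endothelial classes of the intact library. Their injured log2 ratios were all at least 3.11. After thinning to 1000 UMIs, the injured values were -0.21 for Il7 and 0.00 for Mrc1.

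Receptors and cytokines that act on immune cells stood among them. Ackr2, a scavenger of inflammatory chemokines, stood at 163 CPM in 42 of 102 cells, with 0 UMIs in blood endothelium, and was at least 251-fold higher against a floor of 3 UMIs over the group. Mrc1, the mannose receptor also made by macrophages, stood at 142 CPM in 37 cells with 0 UMIs in blood endothelium, at least 218-fold higher, while 10 of 11 macrophage markers were at 0 in the same cells. Il7, a cytokine for lymphocytes, stood at 177 CPM against 1.08 in 56 cells. On the injured side, Ackr2 was seen in 8, Mrc1 in 3 and Il7 in 8 of 20 cells, at 59.0, 46.4 and 59.0 CPM.

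**Figure D2:**
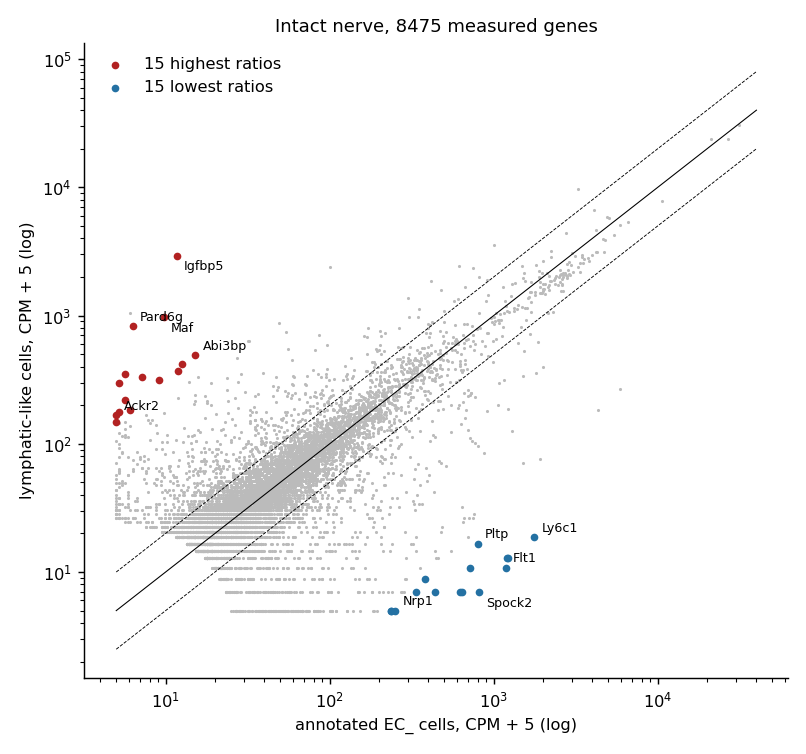
CPM of intact lymphatic-like cells against CPM of intact annotated EC_ cells for 8475 measured genes (5 CPM added, log axes), with equality (solid) and 2-fold lines (dashed). The 15 highest (red) and 15 lowest (blue) ratios among genes eligible for naming lie far from the diagonal, led by Igfbp5 at 2928 against 6.72 CPM and Spock2 at 1.94 against 804 CPM.

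Of the 15 genes with the lowest ratios, 6 are on the list of blood vessel genes (Flt1, Ly6a, Ly6c1, Sparcl1, Vwf and Selp) and 3 on that of barrier transporters (Spock2, Abcb1a and Slco1a4). Spock2, a proteoglycan gene, stood at 1.94 CPM (1 UMI) in intact lymphatic-like cells against 804 in blood endothelium, a ratio with 1 UMI behind it, 414-fold lower (74.3 to 16375). Flt1, the receptor that binds VEGF-A, stood at 5.82 CPM against 1178, 202-fold lower (69.2 to 982). Ly6a and Ly6c1, surface proteins of blood endothelium, stood at 7.76 against 1221 CPM and 13.6 against 1763. The matrix protein gene Sparcl1 stood at 7.76 CPM against 1208 and the clotting factor gene Vwf at 5.82 against 711. The barrier efflux pump gene Abcb1a stood at 1.94 CPM against 639, the organic anion transporter gene Slco1a4 at 1.94 against 435, and the membrane protein gene Mal at 1.94 against 618. All 15 genes of this end were at 0 to 7 UMIs over the 102 cells.

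Nrp1, the co-receptor of the VEGF-A pathway, was at 0 UMIs in both groups of lymphatic-like cells, against 246 and 245 CPM in blood endothelium. It was at least 42.2-fold lower in the intact and at least 19.4-fold lower in the injured library. Vcam1 and Selp, adhesion molecules that catch leukocytes, stood at 1.94 against 332 CPM and 3.88 against 378 in the intact library. Pltp, a lipid transfer gene, stood at 11.6 CPM against 794. C1qtnf9 and Cytl1 were at 0 UMIs in intact lymphatic-like cells, and each was at least 39.7-fold lower. Cytl1 stood at 2.75 CPM in injured blood endothelium, too low to compare with the limit of 12.6 CPM that 0 UMIs allow among injured lymphatic-like cells. The same holds for Slco1a4 at 7.99 CPM.

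**Figure D3:**
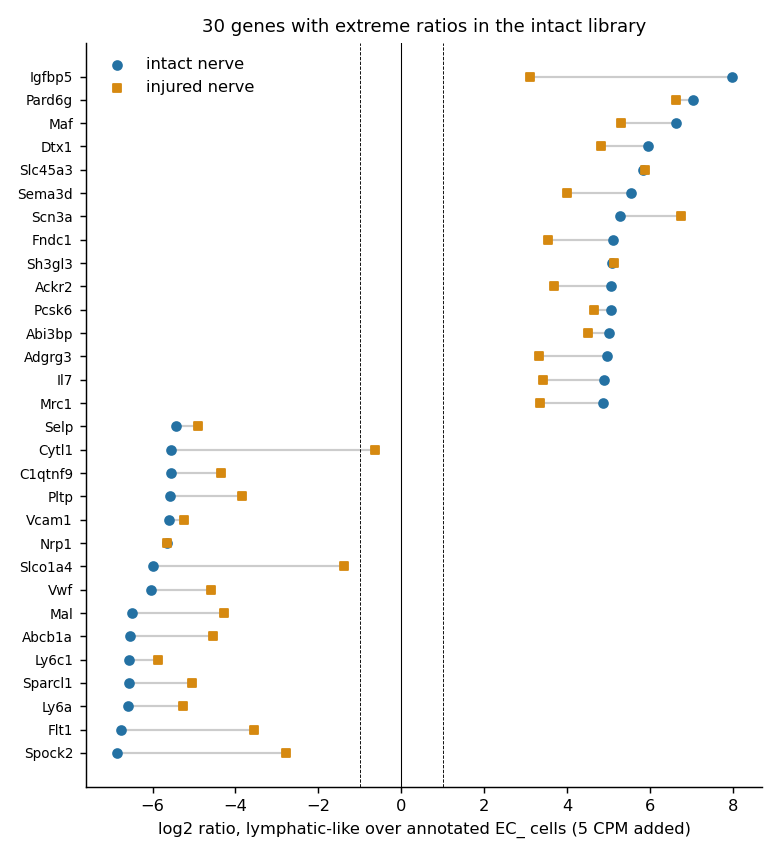
Log2 ratio of CPM (5 CPM added) of lymphatic-like over annotated EC_ cells in the intact (circles) and injured (squares) library for the 15 highest and 15 lowest genes of the intact library, with dashed lines at 2-fold. All squares lie on the same side of 0 as the circles, and Igfbp5, Slco1a4 and Cytl1 lie much nearer to 0 in the injured library.

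General endothelial genes were present, and part of them stood lower than in blood endothelium. Of 15 pan-endothelial genes, 6 were 2-fold or more lower (10.2% of all measured genes were), 0 higher and 9 between these bounds, with a median log2 ratio of -0.94. Cdh5, the VE-cadherin gene whose promoter drives the Cre, stood at 497 CPM against 837 and was seen in 90 of 102 cells. Pecam1 stood at 475 CPM against 916, Tie1 at 303 against 214, and Ecscr at 681 against 400. The 6 lower genes included Esam, a junction protein gene, at 21.3 CPM against 747, Cd93 at 27.2 against 639, and Clec14a at 11.6 against 160. Of these, 13 were measured in the injured library, with 0 higher and 6 lower (median -0.97), against 7.81% of all measured genes lower.

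Of 10 measured transcription regulators of lymphatic fate (Prox1 is in the rule and not counted), 5 passed 2-fold upward, 0 downward, and 5 lay between, with a median of 1.27, against 9.44% of all measured genes higher. Nr2f2, which works with Prox1 and also marks veins, stood at 691 CPM against 158 and above each blood class, of which EC_VEN-PV+ was highest at 364 CPM. Tbx1 stood at 163 CPM against 27.7, Nfatc1 at 225 against 70.8, and Foxc2, the valve regulator, at 60.2 against 2.82 in 24 of 102 cells. Sox18, which switches on Prox1 in the embryo, was at 293 CPM against 364, a log2 ratio of -0.31. In the injured library 4 were measured, of which 2 were higher (Maf and Nfatc1), against 8.37% of all genes measured there.

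Among genes listed around VEGF-C the receptors differed by partner. The list also held Flt1, the receptor that binds VEGF-A, so the counts are not of the VEGF-C pathway alone. Of 8 measured genes 1 was higher, 3 lower and 4 between (median 0.35), against 9.44% and 10.2% of all measured genes higher and lower. Kdr, encoding VEGFR2, stood at 553 CPM against 363, and Nrp2, the co-receptor for VEGF-C, at 450 against 254, both higher but under 2-fold. Itga9, an integrin that acts in valves, stood at 233 CPM against 30.3. The ligand gene Vegfc was at 0 UMIs in both lymphatic-like groups, against 54.8 CPM in intact blood endothelium, and was at least 9.42-fold lower. The 3 lower genes were thus Flt1, Nrp1 and Vegfc. For the injured library, 5 were measured, with 0 higher and 2 lower, which were Flt1 and Nrp1. Of all genes measured there, 8.37% were higher and 7.81% lower.

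Of 12 measured genes of angiopoietin, adrenomedullin and ephrin signalling, 6 lay between (median 0.49). Another 3 were higher and 3 lower, against 9.44% and 10.2% of all measured genes. The higher ones were Ackr3, a decoy receptor that takes up adrenomedullin, at 326 CPM against 42.0, Angpt2 at 97.0 against 26.9, and Adm at 50.4 against 20.8. Angpt2, the Tie2 ligand that acts as an agonist in lymphatics, stood at 312 CPM against 73.5 in the injured library. The lower ones were Ptprb, a phosphatase that dampens Tie2, at 196 CPM against 1065, and Apln and Aplnr, each with 1 UMI. The Tie2 gene Tek stood at 120 CPM against 209.

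Surface and secreted genes known from lymphatic endothelium were nearly all higher. Of 20 measured, 19 were at least 2-fold higher and 1 lower, with a median of 3.17, against 9.44% of all measured genes higher. This list and the others were chosen with earlier results of these data known, so their counts describe the cells and test nothing. Fgl2, a fibrinogen-like protein gene, stood at 2371 CPM against 95.8, Fxyd6 at 867 against 44.0, the copper carrier gene Cp at 745 against 49.2, and Lbp, which binds bacterial lipopolysaccharide, at 702 against 81.2. The scavenger receptor gene Stab1 stood at 541 CPM against 50.5. The metalloproteinase inhibitor genes Timp3 and Timp2 stood at 3516 CPM against 998 and 1362 against 294. Itih5 was the 1 lower gene, at 73.7 CPM against 304. On the injured side, 10 of 11 measured were higher and 0 lower (median 2.44), against 8.37% and 7.81% of all measured genes. The median was 3.08 without the deepest cell.

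Of 14 genes of valves and collecting vessels, 8 were higher, 1 lower and 5 between, with a median of 1.05. Over all measured genes, 9.44% were higher and 10.2% lower. Gja1, a connexin gene, stood at 392 CPM against 193. The tight junction gene Cldn11 stood at 56.3 CPM against 1.30 in 14 of 102 cells, and Emilin1, a matrix gene of elastic fibres, at 67.9 against 23.2. Clu, the clusterin gene, was the lower one, at 21.3 CPM against 704. Of the list, 6 were measured in the injured library, where 2 were higher and 1 lower, against 8.37% and 7.81% of all measured genes.

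Blood vessel genes formed the opposite group. Of 24, 0 were at least 2-fold higher and 18 lower in the intact library, with a median of -3.43, against 10.2% of all measured genes lower. Besides those above, Sox17 stood at 9.70 CPM against 544, Cd34 at 7.76 against 452, and Rgcc at 1.94 against 206. Plvap, the diaphragm protein of leaky vessels, stood at 175 CPM against 901 in 26 of 102 cells. Gpihbp1, which holds lipoprotein lipase in capillaries, was at 423 CPM against 301 in 66 cells, and Notch1 at 357 against 214. In the injured library 15 of 19 measured were lower, with a median of -4.10, against 7.81% of all measured genes lower. Gpihbp1 stood at 50.6 CPM against 366 there.

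Of 15 measured genes on the list of barrier transporters, 13 were lower and 0 higher (median -2.44), against 10.2% and 9.44% of all measured genes. The list also held genes that are not transporters, such as the proteoglycan gene Spock2. Slc2a1, the glucose transporter, stood at 17.5 CPM against 480, and Mfsd2a, a lipid transporter that keeps transcytosis low, was at 0 UMIs against 181 CPM, at least 31-fold lower. Lef1, a Wnt effector of barrier vessels, was at 0 UMIs against 96.2 CPM. Slco2b1 stood at 208 CPM against 119, higher but under 2-fold. Only 2 genes of this list were measured in the injured library, and both were lower, against 7.81% of all genes measured there.

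Junction genes split. Of 13 measured, 2 were higher, 6 lower and 5 between (median -0.75), against 9.44% and 10.2% of all measured genes higher and lower. Jup, encoding plakoglobin, stood at 343 CPM against 80.2, and Cldn11 was the other higher gene. Jam2 stood at 7.76 CPM against 437, the zonula occludens gene Tjp1 at 146 against 418, and Jam3 at 7.76 against 48.1. Cldn5, the main claudin of both vessel types, stood at 1915 CPM against 2601 in the intact and 1758 against 584 in the injured library. The lymphatic-like level thus lay under the blood level in one library and above it in the other, while it differed by a ratio of 0.918 (0.817 to 1.03) between lymphatic-like cells of both libraries.

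Of 20 leukocyte traffic and antigen genes, 1 (Il7) was higher, 12 lower and 7 between (median -1.85), against 9.44% of all measured genes higher and 10.2% lower. The chemokine gene Cxcl12 stood at 71.8 CPM against 1914. Sele and Cx3cl1 were at 0 UMIs, against 68.5 and 67.2 CPM. Of the MHC class II genes, H2-Aa was at 0 UMIs against 23.2 CPM, and Cd74 had 1 UMI against 70.4 CPM in blood endothelium. Genes of sphingosine-1-phosphate signalling were near the blood level, with S1pr1 at 318 CPM against 418 and the exporter gene Spns2 at 149 against 122. For the injured library, 8 were measured, with 0 higher and 3 lower, against 8.37% and 7.81% of all measured genes.

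Lipid handling genes were lower in 8 of 16, higher in 1 and between in 7 (median -0.63), while 10.2% of all measured genes were lower and 9.44% higher. The fatty acid carrier gene Fabp4 stood at 264 CPM against 5861 and was seen in 26 of 102 cells, Cd36 at 13.6 against 695, and Apoe at 120 against 1287. The cholesterol exporter gene Abca1, at 256 CPM against 84.3, was the higher one. On the injured side, 6 of 9 measured were lower and 0 higher, against 7.81% and 8.37% of all measured genes.

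Basement membrane genes went both ways, with 5 of 15 higher, 4 lower and 6 between (median -0.13), against 9.44% and 10.2% of all measured genes. Nid2 stood at 87.3 CPM against 12.1, the laminin genes Lamb1 and Lama4 at 149 against 29.9 and 309 against 94, and Col18a1 at 343 against 90.1. Col15a1 was at 0 UMIs against 179 CPM, at least 30.7-fold lower, and Sparc stood at 66.0 against 1497. Of the injured comparison, 2 of 11 measured were higher (Fn1 and Lama4) and 4 lower, among them Col4a1 at 835 CPM against 2423. There, 8.37% of all measured genes were higher and 7.81% lower.

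The next 3 lists had few genes past 2-fold and are read against 9.44% of all measured genes higher and 10.2% lower, which for lists of this size is about 1 gene each way. Flow response genes gave 1 of 9 higher, 2 lower and 6 between (median -0.45), with Klf2 at 2035 CPM against 2812 and Klf4 at 2142 against 1526. In the injured library 2 of 6 were higher, with Klf4 at 1231 CPM against 367, while 8.37% of all genes measured there were higher. Of 10 Notch pathway genes 2 were higher, 3 lower and 5 between (median -0.46). Notch2 stood at 38.8 CPM against 4.98 and the target gene Hes1 at 1075 against 490, whereas the ligand gene Jag2 stood at 11.6 against 109. Of 15 immediate early genes 2 were higher, 1 lower and 12 between (median 0.07), with Fos at 4651 CPM against 4218. Of the 5 sex-linked control genes, the 3 measured in the intact library all lay between, with Xist at 435 CPM against 294. In the injured library Xist was the 1 measured and was lower, at 455 CPM against 938, a log2 ratio of -1.03.

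**Figure D4:**
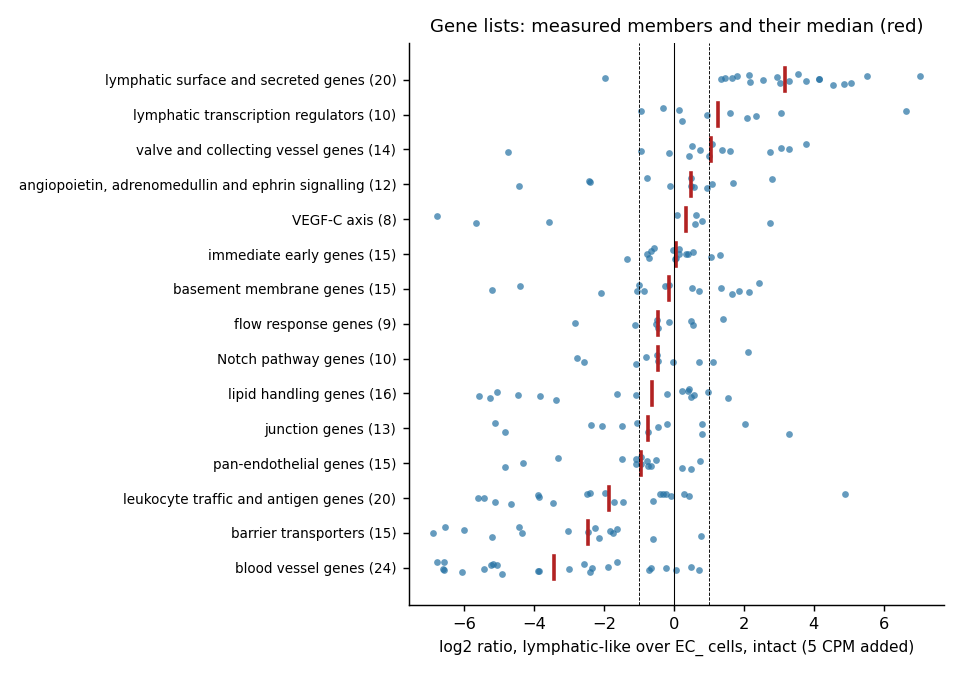
Log2 ratios (5 CPM added) of lymphatic-like over annotated EC_ cells in the intact library for measured members of each gene list (blue points, number of members in brackets), with the list median (red) and 2-fold lines (dashed). Lymphatic surface and secreted genes lie highest with a median of 3.17 and blood vessel genes lowest with a median of -3.43. The lists were chosen with earlier results of these data known.

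The blood class most like the intact lymphatic-like cells was EC_VEN-PV+. Across 8475 genes the Pearson correlation of log2 CPM was 0.742 with this class (218 cells), followed by 0.689 with EC_CAP-PV-, 0.682 with EC_ART, 0.666 with EC_VEN-PV- and 0.664 with EC_BAR. The other venous class thus stood below a capillary and an arterial one. The lowest was 0.571 with EC_TIP, which held only 21 cells of a median of 783 UMIs. These correlations are across genes of 1 library, which share its depth, and genes are not replicates. For the injured library, over 1613 genes, they ran from 0.601 (EC_BAR, median 1072 UMIs) to 0.668 (EC_TIP, median 16012 UMIs), so the 2 ends of the range also differed in depth. EC_VEN-PV+ (362 cells) did not keep its first place there. It stood at 0.614, below EC_TIP, EC_PROLIF (0.664), EC_IMMAT (0.641), EC_ART (0.626) and EC_VEN-PV- (0.622).

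Lymphatic-like cells differed among themselves in the intact library. Cldn11, a marker of valve cells, was seen in 14 of 102 cells, and these 14 held Lyve1 at 835 CPM against 3209 in the other 88, Ccl21a at 18137 against 30590 and Reln at 383 against 1226. The same 14 held more Nts, at 2009 CPM against 704, and more Prox1, at 1166 against 724. Fn1, a matrix protein of valve leaflets, was seen in 9 of the 14 and in 19 of the 88, and Nfatc1 in 11 of 14 and 40 of 88. The 14 were also deeper, with a median of 7591 UMIs against 3764, which raises the chance of seeing any gene, so the shares of cells are not at matched depth. Cells without a Lyve1 UMI (12 of 102) held Ccl21a at 12118 CPM against 30621 and Mmrn1 at 1150 against 4163, with Prox1 at 997 against 791. Of these 12, 6 had Cldn11, against 8 of the 90 with Lyve1. Splitting the cells by other genes gave a like picture. The 26 cells with Plvap, which were also deeper (median 6506 UMIs against 3694), held Lyve1 at 1405 CPM against 3438 in the other 76, Ccl21a at 21527 against 31550 and Nts at 1488 against 702. Cells with Fn1 or Foxc2 differed from the rest in the same directions for these 3 genes. The genes of this paragraph were chosen after their values were seen.

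Cycling was seen in the injured library only at a level with wide error. With at least 2 of 14 G2/M genes detected as the sign, 0 of 102 intact cells were cycling, which allows a share of up to 2.94% by the limit of 3 cells and 3.55% by the exact interval, against 24 of 818 blood endothelial cells (2.93%, 1.89% to 4.33%). On the injured side, 4 of 20 were cycling (20%, 5.73% to 43.7%), against 341 of 1322 (25.8%, 23.5% to 28.2%). After thinning to 1000 UMIs, 2 of 20 (10.0%, 1.23% to 31.7%) and 95 of 1279 (7.43%, 6.05% to 9%) were left in the injured library. In the intact library, thinning left 0 of 102 (up to 3.55%) and 6 of 690 (0.870%, 0.320% to 1.88%). At matched depth the intact shares thus lay within each other's error. Mki67, the proliferation antigen gene, had 0 UMIs in intact and 29 UMIs in 4 of 20 injured cells. Of the G2/M genes, 0 were measured in the intact comparison and 2 in the injured one, with 1 higher, against 8.37% of all measured genes.

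Between lymphatic-like cells of both libraries, the injured group differed at many genes, but with 20 cells on one side. The 1621 genes at a mean of at least 100 CPM included the rule genes that reached it. By sums of UMIs, 151 (9.32%) were at least 2-fold higher and 127 (7.83%) lower in the injured cells, Ccl21a and Mmrn1 among the latter. Only 54 (3.33%) and 60 (3.70%) were so by sums, by the mean of per-cell CPM and without the deepest cell together, and the genes named next met all 3 by a rule set after values were seen. Hist1h2ap, a histone gene, did not: it stood at 2120 CPM in the injured cells, and all 503 UMIs came from the deepest cell.

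Genes of matrix and of inflammation were among the higher ones. Fn1 stood at 173 CPM in intact and 2352 in injured lymphatic-like cells, a ratio of 13.6 (10.9 to 17.2), and was seen in 28 of 102 and 16 of 20 cells. In blood endothelium of both libraries its log2 ratio was 0.63. Ptx3, a soluble pattern recognition protein, stood at 56.3 and 603 CPM, a ratio of 10.7 (7.15 to 16.6), in 24 of 102 and 10 of 20 cells, with a log2 ratio of -0.05 in blood endothelium. S100a4, a calcium-binding protein gene, stood at 29.1 and 236 CPM, in 7 of 102 and 12 of 20 cells. After thinning to 1000 UMIs, Fn1 was seen in 11.8% of intact (6.23% to 19.6%) and 55.0% of injured cells (31.5% to 76.9%). Ptx3 was seen in 12.7% (6.96% to 20.8%) and 30.0% (11.9% to 54.3%), and S100a4 in 1.96% (0.238% to 6.90%) and 15% (3.21% to 37.9%), which is 2 and 3 cells. The intervals cover counting error within a library, and the genes were chosen by these same data. Whether the intervals overlap therefore decides nothing about injury. That they differ from blood endothelium in this was not tested.

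Stmn1, a microtubule regulator of growing cells, stood at 38.8 and 502 CPM, Cdh13, a T-cadherin gene, at 38.8 and 207, and Igfbp7 at 177 and 805. The chemokine gene Cxcl1 stood at 29.1 CPM in intact and 126 in injured cells, and Selenoh, a selenoprotein gene, at 38.8 and 236. Tnc, the tenascin C gene, and Cks2, a partner of cell cycle kinases, had 5 injured cells each with a UMI and stood at 228 and 169 CPM against 3.88 and 5.82. Without the deepest cell, the injured levels were 301 CPM for Stmn1, 154 for Tnc and 55.3 for Cks2. Stmn1, Tnc, Cks2, Selenoh and Cxcl1 had log2 ratios of 1.45 to 2.57 in blood endothelium as well.

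Igfbp5 was the plainest of the lower genes. It stood at 2928 CPM in the intact and 71.7 in the injured cells, 40.9-fold lower (25.4 to 70.3), with a UMI in 62 of 102 and 1 of 20 cells, and after thinning in 52.0% and 5.00%. Its relative Igfbp3 stood at 208 and 4.22 CPM, in 27 of 102 and 1 of 20 cells, while Igfbp3 had a log2 ratio of 1.02 in blood endothelium. Comp, a matrix protein gene, stood at 186 and 4.22 CPM, and Ptn, the growth factor pleiotrophin, at 291 and 8.43. Aldh2, an aldehyde dehydrogenase, stood at 231 and 21.1 CPM (6.14 without the deepest cell), Slfn5 at 180 and 4.22, Btnl9 at 147 and 4.22, and Tns2 at 142 and 16.9. The heat shock gene Hspa1b stood at 316 and 25.3 CPM, and Mir6236, an annotated microRNA locus, at 1867 and 287. Each of these but Igfbp3 and Igfbp5 had a log2 ratio between -1.19 and -4.18 in blood endothelium, and Igfbp5 had -0.40.

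The lymphatic genes themselves are described without a test, since they chose the cells in both libraries. Ccl21a was 2.89-fold lower in injured cells by sums (2.77 to 3.02), but the deepest cell stood low for it. Its per-cell mean was 28281 CPM in intact and 17711 in injured cells, a log2 ratio of -0.68, and -1.11 by sums without the deepest cell. Mmrn1 stood at 3706 and 1433 CPM, or 3994 and 2129 as means over cells. Prox1 (823 and 835 CPM, or 1093 without the deepest injured cell), Thy1 (473 and 518) and Lyve1 (2680 and 2036) lay closer together. The flow genes Klf2 and Klf4 and the immediate early gene Fos had per-cell means within 2-fold in both libraries, with 4588 and 3556 CPM for Fos.

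**Figure D5:**
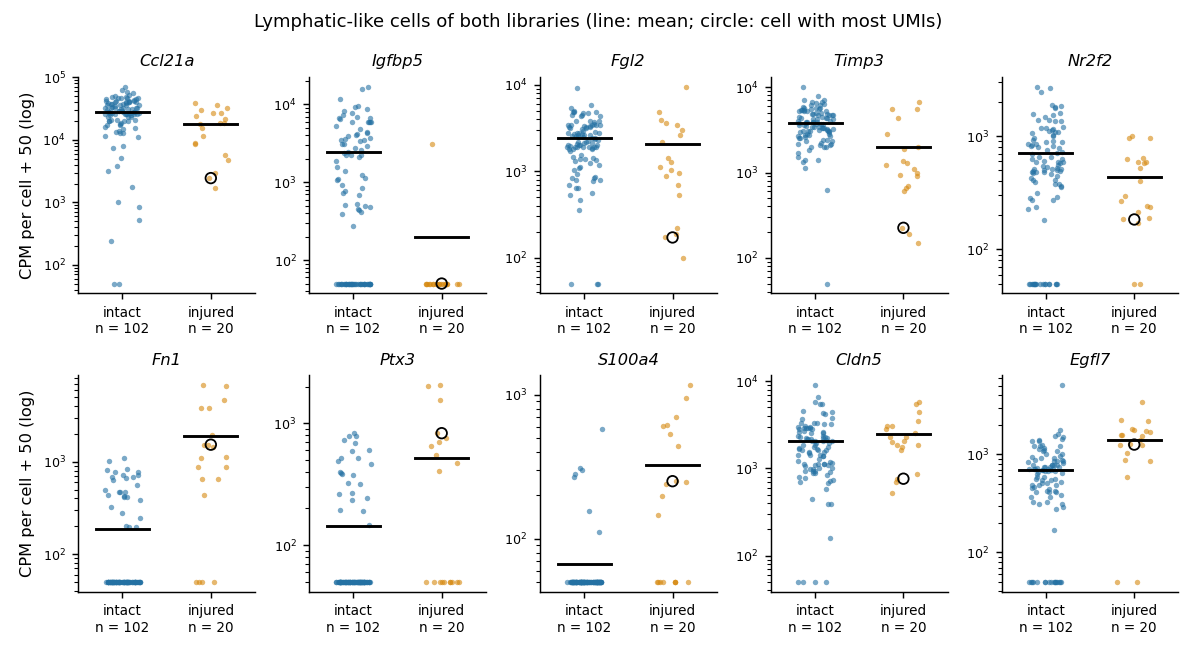
CPM per cell (50 added, log axes, slight jitter) of 10 genes in the 102 intact and 20 injured lymphatic-like cells, with the mean over cells (line) and the injured cell of most UMIs circled. Igfbp5 is at 0 in all but 1 injured cell, Fn1 is seen in 16 of 20 injured cells, and Cldn5 overlaps broadly between the libraries.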

How the data were processed

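The authors deposited 2 matrices of counts (UMIs per gene and barcode, not normalized) and a table of cell classes. Per the file headers, the matrices come from Cell Ranger 3.0.2. Per the submitters' processing notes, builds mm10 and GRCm38 and the tools Seurat 4.0.1 and Cell Ranger 6.1.2 are listed. The filter on cells and the method behind the classes were not given in the sources used here. GENCODE M21 gave positions, and it holds 50604 (94.8%) of the 53380 features under an equal ID and version.

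UMIs were summed over the lymphatic-like cells and over the annotated EC_ cells of the same library and expressed as CPM. Log2 ratios had 5 CPM added. Ratios carry exact conditional binomial and shares exact Clopper-Pearson 95% intervals, which cover counting error only. For fold limits given as at least a value, a group at 0 was set to 3 UMIs, whereas log2 ratios and calls used the 0 itself. A gene counted as measured from a mean of 10 CPM (intact) or 100 CPM (injured and between libraries) upward, and was called at 2-fold. The 23 rule genes were left out against blood endothelial cells but kept in the comparison between libraries. Named genes were the 15 highest and 15 lowest intact ratios of genes that reached 50 CPM and 30 UMIs in their higher group, without mitochondrial, ribosomal protein, predicted, haemoglobin, immunoglobulin and sex-linked control genes, plus up to 3 each way per gene list. Names outside this are the rule genes, the copies of Ccl21a, and further list members and the genes of the comparison between libraries, chosen with their values in view. For those between libraries, at most 10 each way were taken, at 100 CPM and 30 UMIs in the higher group and a UMI in at least 5 injured or 26 intact cells. Members and lists were chosen with earlier results of these data known. Clusters used scanpy 1.11.5, 2000 variable genes, 30 components and Leiden resolution 1. UMIs are counted once per gene, and levels are compared between cells, not between genes. Values of some single list members are not reported here.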

Additional observations from a re-analysis of the deposited data

Results flagged for a closer look

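Car4, which encodes a carbonic anhydrase of capillaries, had a log2 ratio of lymphatic-like over annotated EC_ cells of -5.05 in the intact library and 1.80 in the injured one. The levels were 3.88 CPM against 289 and 33.7 CPM against 6.14, and the injured value rests on 8 UMIs in 2 cells. Slc7a1, a carrier of basic amino acids, had log2 ratios of -1.83 (25.2 CPM against 102) and 1.44 (67.4 against 21.8, 16 UMIs in 9 of 20 cells). For both genes the 2 libraries point in opposite directions, with blood endothelial levels lower in the injured library. The difference between the libraries was not tested.

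Among annotated barcodes, which the comparison does not count as lymphatic-like, 2 injured ones with the class INTERMEDIATE met both conditions of the rule on genes. They held at least 4 of the 9 lymphatic genes and more UMIs of these than of the fibroblast genes. Both were under 1000 UMIs, at 541 and 561, with 19 and 14 lymphatic UMIs, and both share their barcode with an intact lymphatic-like cell of 13748 and 16545 UMIs. Among unannotated intact barcodes under 1000 UMIs, which the UMI minimum leaves out, 2 met the same conditions on genes.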

How the results depend on the processing

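No paired analysis was possible because each condition is 1 library and the labels carry no replicate numbers. The shares of lymphatic-like cells stayed within their counting intervals under all alternatives that were run on them, among them a minimum of 3 or 5 lymphatic genes, of 500 or 2000 UMIs, and removal of shared barcodes. Counts of genes past 2-fold moved most with depth and filters. Thinned to 1000 UMIs, 1484 genes were higher and 1336 lower in the intact library and 423 and 220 in the injured one. With 20 CPM added, 508 were higher and 568 lower (intact). With no filter on low values, 1310 were lower (intact), and 1214 were higher and 1422 lower (injured). With a filter 5 times higher, 337 and 330 (intact) and 22 and 14 (injured) were left, of fewer genes measured. Between libraries, 82 were lower by the mean of per-cell CPM, 350 higher when thinned, and 98 higher without shared barcodes. Il7 in the injured library reversed when thinned, to -0.21, and the cause was not tested. Log2 ratios were compared with their main value by a fixed fold limit, not by a counting interval. Of 900 values of the 30 named genes in both libraries, 728 stayed within this limit, 171 moved beyond it and 1 reversed. Of 426 list medians 395 stayed and 31 moved. All 30 kept at least 2-fold in the intact library under all 15 alternatives. In the injured library Cytl1 reached 2-fold in 1 of 15, and Il7, Mrc1 and Slco1a4 in 14 of 15. The alternatives without the deepest cell, and those for the comparison between libraries, were chosen after seeing the data. A gene with 0 UMIs could stand at up to 5.82 CPM in intact and 12.6 CPM in injured lymphatic-like cells.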
